A study of Homo sapiens with 6 samples.

Results

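The IL-6 family of cytokines, its receptors and the JAK1-STAT3 branch that carries their signal were followed by RNA-seq in PANC-1, a widely used line of human pancreatic ductal carcinoma cells, after siRNA against CD73. The 10 genes were the rows whose Ensembl identifier maps to IL6ST, IL6R, LIFR, OSMR, IL6, LIF, IL11, JAK1, STAT3 or SOCS3, and all 10 were found among the 30735 genes in the files. Cells on 6-well plates received CD73 siRNA (3 samples) or the matched negative control (3 samples) with Lipofectamine 3000 in medium without serum. CD73, encoded by NT5E, is a membrane enzyme that makes adenosine from AMP outside the cell. The CD73 siRNA is given as 1 catalogue entry. Neither its sequence nor the time at which RNA was taken is given in the sources used here. The samples thus cannot be said to include a second, independent siRNA. The 6 samples are named by group and by the number, 1 to 3, in their labels (CD73si1 to CD73si3 and NC1 to NC3). The study presents the 3 samples of a group as separate knockdown experiments. No source says what the number shares between the groups.

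Cytokines of this family signal through receptor complexes that share the chain gp130, encoded by IL6ST. IL-6 first binds IL6R and IL-11 its own receptor, LIF pairs gp130 with LIFR, and oncostatin M pairs it with OSMR or LIFR. Janus kinases bound to the receptor tails, JAK1 foremost, then phosphorylate STAT3, which enters the nucleus and switches on its target genes, SOCS3 among them. SOCS3 binds gp130 and JAK1 and dampens the signal. In pancreatic cancer the pathway is known for cytokines from stromal and tumour cells acting on the carcinoma cells, IL-6 and LIF in particular. Phosphorylation, on which the pathway runs, is not measured by RNA-seq.

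Values are RPKM (reads per kilobase of exon and per 1000000 reads of the library), so that levels can be set side by side between genes. They were compared with limma on the log2(RPKM + 1) scale over the 12527 genes that reached 1 RPKM in at least 3 of the 6 samples. Fold changes on that scale understate the change of low genes. A gene was called lower or higher at an unadjusted p below 0.01, the limit the study used. Adjusted p-values (Benjamini-Hochberg, over all 12527 genes) stand beside the calls, and 1 gene in the whole table, none of the 10, reached an adjusted p below 0.05. The library totals, derived from the values, were between 15009113 and 16836207 reads. NT5E was at 3.36, 6.85 and 8.22 RPKM in CD73 siRNA samples 1, 2 and 3 and at 14.0, 13.9 and 17.1 RPKM in the controls, or 41.0% of the control mean. The line's markers KRT8 and KRT18 were present in every sample, EPCAM and CDH1 were at 1.71 RPKM or less, and KRT7 did not exceed 0.107 RPKM. Of 12 markers of leukocytes, endothelium and fibroblasts, 10 were listed. COL3A1, a fibroblast collagen, was at 6.11 to 14.7 RPKM, and the other 9 stayed at or below 0.231 RPKM.

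Of the 9 genes that could be tested, 3 were called lower after CD73 siRNA and 0 higher. They were LIFR, IL6ST and JAK1, the receptor chain for LIF, the shared receptor chain and the kinase bound to it. Over all tested genes, 1.31% were called lower and 1.82% higher. All 9 had a log2 fold change below 0, between -0.61 and -0.18 with a median of -0.39, where 48.0% of all tested genes were below 0 and the median of all tested genes was 0.009. In 5 of the 9 (LIFR, IL6ST, OSMR, JAK1 and SOCS3) every CD73 siRNA sample lay below every control, as in 8.07% of all tested genes. In 8 of the 9, IL11 being the exception, the CD73 siRNA sample lay below the control within each of the 3 numbers, as in 24.5% of all tested genes. With the number as a block in the fit, LIFR, IL6ST and JAK1 were again the genes called, against 3.3% of all genes called lower and 4.27% higher in that fit. No adjusted p of the 9 was below 0.303, or below 0.113 with the block. These genes were chosen with earlier results of these data known, so their distance from the shares over all tested genes is a description and no test. In bulk samples such as these, fewer cells that express a gene and less of its RNA per cell cannot be told apart.

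**Figure D1:**
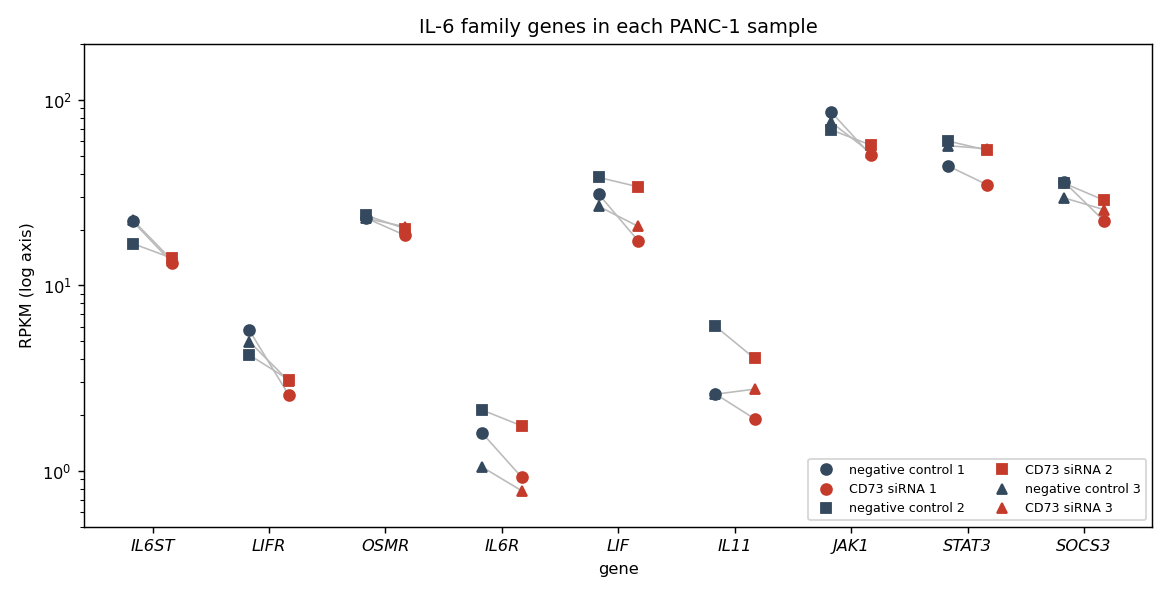
RPKM (log axis) of the 9 tested genes in each sample, negative control in dark blue on the left and CD73 siRNA in red on the right of each gene. Circles, squares and triangles are numbers 1, 2 and 3, and grey lines join samples of the same number. The groups are apart for IL6ST, LIFR, OSMR, JAK1 and SOCS3. They overlap for IL6R, LIF, IL11 and STAT3.

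The sequences before the starts of IL6ST, LIFR and JAK1 are shown because these genes were called lower together. They come from RefSeq (GRCh38.p14) and run from 5′ to 3′ on the minus strand, on which all 3 genes lie. Each is the longest stretch, within 250 bases before a RefSeq start, that lies outside the annotated exons. For JAK1, 3 stretches were equally long at 250 bases, and the 1 printed lies nearest to the annotated gene. Capitals mark matches to the motifs searched for on both strands, which were TTCNNNGAA (bound by STAT proteins), TGANTCA (AP-1), TGACGTCA (the cyclic AMP response element, CRE) and the NF-kB motif.
IL6ST (chr5:55994994-55995166): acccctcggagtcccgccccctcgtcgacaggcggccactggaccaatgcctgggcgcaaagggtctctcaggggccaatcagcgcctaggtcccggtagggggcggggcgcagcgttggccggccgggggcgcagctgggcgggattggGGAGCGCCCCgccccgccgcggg
LIFR (chr5:38595406-38595655): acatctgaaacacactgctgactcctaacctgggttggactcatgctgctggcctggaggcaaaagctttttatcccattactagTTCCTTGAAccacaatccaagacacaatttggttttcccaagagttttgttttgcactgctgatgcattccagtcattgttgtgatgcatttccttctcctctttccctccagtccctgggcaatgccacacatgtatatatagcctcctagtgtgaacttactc
JAK1 (chr1:64966550-64966799): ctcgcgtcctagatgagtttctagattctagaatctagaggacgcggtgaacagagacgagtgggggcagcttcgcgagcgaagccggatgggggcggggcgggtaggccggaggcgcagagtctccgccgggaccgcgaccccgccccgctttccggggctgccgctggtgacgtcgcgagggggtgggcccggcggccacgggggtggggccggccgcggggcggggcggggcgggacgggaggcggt
The IL6ST window held 1 NF-kB match, GGAGCGCCCC, 53 bases before the start, and no STAT match. LIFR has 3 RefSeq starts. The window printed holds the STAT match TTCCTTGAA, 165 bases before that start. A second LIFR window holds TTCATCGAA, 182 bases before its start, and lies wholly inside annotated exons, so it is not printed. The third LIFR window, with 83.6% G and C, held no match. None of the 3 JAK1 windows held a match, and their RefSeq starts differ from the GENCODE starts. STAT matches were in 6.57% of 35116 windows of the same length over all genes, AP-1 matches in 6.57%, CRE matches in 1.65% and NF-kB matches in 9.96%. Among the windows of the other members, IL6 had an NF-kB match (GGGATTTTCC) 73 bases before its start and IL11 an AP-1 match (TGAGTCA) 96 bases before its start. The windows of IL6R, OSMR, STAT3 and SOCS3 had none, and LIF was not in the table of promoters. The RefSeq starts of SOCS3 (78360925 and 78359667) also differ from its GENCODE start (78360077). The bases just before that GENCODE start lay in neither SOCS3 window and were not searched. A match describes letters only, and values per gene do not tell which start was used.

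IL6ST (ENSG00000134352, chromosome 5, 55935095 to 55994993, minus strand, GENCODE 29 on GRCh38) was lower after CD73 siRNA. It was at 13.2, 14.0 and 13.6 RPKM in CD73 siRNA samples 1 to 3 and at 22.1, 16.8 and 22.5 RPKM in the controls. The knockdown samples lay within 1 RPKM of each other, and the lowest control, number 2, was still above all of them. The means were 13.6 ± 0.435 and 20.5 ± 3.16 RPKM (SD, 3 samples per group), which puts the knockdown at 66.5% of control. By limma this was a log2 fold change of -0.54 (standard error 0.13, unadjusted p = 0.0027, adjusted p = 0.303). Leaving out CD73 siRNA 1, control 1 or control 3 ended the call, with unadjusted p-values of 0.0118, 0.0111 and 0.0122 at log2 fold changes of -0.52, -0.49 and -0.47, as did a fit without moderation of the variances (0.0142). An antisense gene shares 797 exon bases with IL6ST, and the sources used here do not say whether counting used strand.

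LIFR (ENSG00000113594, chromosome 5, 38474963 to 38608354, minus strand), the signalling partner of gp130 in the LIF receptor, showed the largest log2 fold change of the 9. It was at 2.56, 3.10 and 3.05 RPKM after CD73 siRNA and at 5.74, 4.22 and 4.98 RPKM in the controls. All 3 knockdown samples were thus below the lowest control, again number 2. The level was 58.3% of the control mean (2.90 ± 0.294 against 4.98 ± 0.763 RPKM). By limma the log2 fold change was -0.61 (standard error 0.13, unadjusted p = 0.00175, adjusted p = 0.303). The call of LIFR held under all 12 alternative settings, with log2 fold changes between -0.75 and -0.52. Its values rested on 489 to 1093 reads per sample. LIFR-AS1, on the other strand, shares 629 exon bases with LIFR and was at 0.11 RPKM or less in every sample.

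OSMR (ENSG00000145623, chromosome 5, 38845858 to 38945596, plus strand), the chain that binds oncostatin M together with gp130, was the most abundant of the 4 receptor chains. It was at 18.6, 20.2 and 20.7 RPKM after CD73 siRNA and at 23.1, 23.9 and 23.0 RPKM in the controls. The groups did not overlap, although the difference was small, at 84.8% of the control mean. Its log2 fold change of -0.23 (standard error 0.09) did not pass the limit by limma (unadjusted p = 0.0392, adjusted p = 0.389). Without moderation it was called (unadjusted p = 0.00882). OSMR shares 229 exon bases with RICTOR on the other strand.

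IL6R (ENSG00000160712, chromosome 1, 154405193 to 154469450, plus strand), the chain that binds IL-6 itself, was the scarcest of the receptor chains. It was at 0.925, 1.75 and 0.782 RPKM after CD73 siRNA and at 1.6, 2.13 and 1.05 RPKM in the controls. The groups overlapped, since knockdown sample 2 was above controls 1 and 3, while within each number the knockdown sample was the lower one. The log2 fold change was -0.27 (standard error 0.22, unadjusted p = 0.248 by limma), on 85 to 213 reads per sample.

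Whether the other chains moved differently from gp130 was tested on their ratio to IL6ST in each sample, with 3 ratios compared. OSMR was at 1.41, 1.44 and 1.52 times the IL6ST level after CD73 siRNA and at 1.05, 1.42 and 1.02 times in the controls. The ratio was higher in the knockdown sample within all 3 numbers, by 0.338 on the log2 scale on average. An exact two-sided permutation test gave p = 0.2 (adjusted over the 3 ratios p = 0.3), and 3 samples against 3 cannot give less than 0.1. For LIFR the ratio to IL6ST was 0.195, 0.22 and 0.224 against 0.26, 0.251 and 0.221, a log2 difference of -0.196 (exact permutation p = 0.2, adjusted p = 0.3). For IL6R it was 0.0702, 0.125 and 0.0575 against 0.0727, 0.126 and 0.0468, with the ranges overlapping (exact permutation p = 1.0). None of the 3 ratios was shown to differ between the groups.

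**Figure D2:**
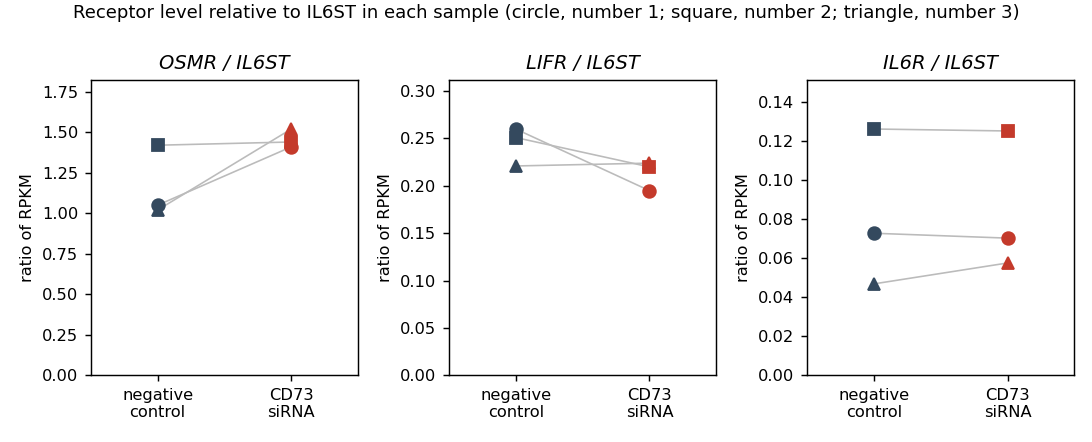
Ratio of the RPKM of OSMR, LIFR and IL6R to that of IL6ST in each sample (linear axes from 0, a different scale in each panel), negative control in dark blue and CD73 siRNA in red, with lines joining samples of the same number. The OSMR ratios of control samples 1 and 3 (1.05 and 1.02) lie below all CD73 siRNA ratios but control 2 (1.42) does not.

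Among the other receptor chains of the family, 3 of 4 could be tested, and 0 were called. IL11RA, which binds IL-11, had a log2 fold change of -0.05 and CNTFR, which binds ciliary neurotrophic factor, one of -0.06. Leaving out 1 sample turned either sign. IL27RA, the receptor chain that joins gp130 to bind IL-27, was at 5.99, 6.71 and 12.4 RPKM after CD73 siRNA and at 17.1, 9.85 and 15.9 RPKM in the controls. The groups overlapped through knockdown sample 3 and control 2. Its log2 fold change was -0.73 with an unadjusted p of 0.0306 by limma, and 0.0082 with the number as a block, which made it the 1 further receptor called there. It was also called without CD73 siRNA 3 or without control 2, with unadjusted p-values of 0.00251 and 0.00762 by limma. IL31RA was at 0.305 RPKM or less. The list had a median log2 fold change of -0.06.

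Of the ligands, LIF was the one that PANC-1 cells expressed at a high level. LIF (ENSG00000128342, chromosome 22, 30240447 to 30246851, minus strand) was at 17.4, 34.0 and 20.8 RPKM after CD73 siRNA and at 31.1, 38.2 and 26.7 RPKM in the controls. Knockdown sample 2 lay above 2 of the controls, so the groups overlapped, but within each number LIF was lower in the knockdown sample, by 0.80, 0.16 and 0.34 on the log2 scale for numbers 1, 2 and 3. The means were 24.1 ± 8.77 and 32.0 ± 5.79 RPKM (75.3% of control). Its log2 fold change of -0.44 (standard error 0.24) did not pass the limit by limma, with an unadjusted p of 0.103 and of 0.0127 with the block. Without CD73 siRNA 2 it was -0.70 and LIF was called (unadjusted p = 0.00387 by limma), and without CD73 siRNA 1 it was -0.24. LIF shares 92 and 175 exon bases with the antisense genes LIF-AS1 and LIF-AS2, both at 2.01 RPKM or less.

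IL11 (ENSG00000095752, chromosome 19, 55364389 to 55370463, minus strand) was at 1.91, 4.04 and 2.76 RPKM after CD73 siRNA and at 2.61, 6.05 and 2.59 RPKM in the controls. The number 2 samples were the highest of either group, and knockdown sample 3 was above control 3. Its log2 fold change was -0.24 (standard error 0.30, unadjusted p = 0.437 by limma) and turned to 0.08 without control 2.

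IL6 (ENSG00000136244, chromosome 7, 22725884 to 22732002, plus strand), the cytokine that gave the family its name, was close to absent from the reads. Its derived read counts were 0, 0 and 1 after CD73 siRNA and 0, 2 and 0 in the controls. The limit that a count of 0 allows, 3 reads, corresponds to 0.0861 to 0.0966 RPKM for IL6 in these libraries and covers counting error only. No fold change can be given, and a difference between the groups was not detectable at this depth.

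Of 8 further ligand genes 4 could be tested, while OSM, CNTF, IL27 and IL31 did not exceed 0.704 RPKM. EBI3, the subunit shared by IL-27 and IL-35, was the only 1 of the 4 tested called, lower, against 1.31% of all tested genes. It was at 2.08, 4.4 and 1.39 RPKM after CD73 siRNA and at 7.82, 5.72 and 6.12 RPKM in the controls, so that the groups did not overlap. The log2 fold change was -1.14 (standard error 0.28, unadjusted p = 0.00351, adjusted p = 0.303 by limma), with 40.1% of the control level left and 30 to 161 reads per sample. Without CD73 siRNA 1 or control 1 the unadjusted p was 0.0153 and 0.0177, and the call was lost. IL27, which makes the other subunit of IL-27, had at most 1 read in any sample. The other tested ligands were not called, and the list had a median log2 fold change of 0.11.

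JAK1 (ENSG00000162434, chromosome 1, 64833229 to 64966504, minus strand), the kinase on which gp130 chiefly relies, was lower after CD73 siRNA. It was at 50.2, 57.0 and 51.8 RPKM after CD73 siRNA and at 85.7, 68.8 and 75.5 RPKM in the controls. The highest knockdown sample, number 2, was below the lowest control, also number 2. The means were 53.0 ± 3.55 and 76.7 ± 8.51 RPKM (69.1% of control), on 5094 to 8683 reads per sample. JAK1 had a log2 fold change of -0.52 by limma (standard error 0.11, unadjusted p = 0.00157, adjusted p = 0.303). The call held under all 12 alternative settings, with log2 fold changes between -0.60 and -0.44.

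STAT3 (ENSG00000168610, chromosome 17, 42313324 to 42388568, minus strand), the transcription factor that the kinases activate, did not separate the groups. It was at 34.8, 53.5 and 54.5 RPKM after CD73 siRNA and at 44.1, 60.0 and 56.6 RPKM in the controls. Number 1 was the lowest in both groups. The log2 fold change was -0.18 (standard error 0.19, unadjusted p = 0.367 by limma). Within the numbers the knockdown samples were lower by 0.33, 0.16 and 0.05, and without knockdown sample 1 the fold change turned to 0.02.

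None of the 7 other JAK and STAT genes tested, of 9 listed, was called, and their median log2 fold change was -0.12. TYK2, another kinase of gp130, was at 7.37, 8.89 and 9.23 RPKM after CD73 siRNA and at 12.3, 10.0 and 9.70 RPKM in the controls, without overlap (log2 fold change -0.30, unadjusted p = 0.0525 by limma). JAK2 did not overlap either, at 1.12 to 1.55 against 1.65 to 1.90 RPKM (-0.25, unadjusted p = 0.0924 by limma). STAT5A overlapped, at 0.93 to 1.86 against 1.81 to 2.23 RPKM (-0.34, unadjusted p = 0.0776 by limma). JAK1 made up most of the Janus kinase RPKM, with 84.2%, 84.1% and 82.5% of the sum of the 4 kinases after CD73 siRNA and 85.4%, 84.9% and 86.2% in the controls. STAT3 made up 26.2% to 38.0% of the sum of the 7 STATs after CD73 siRNA and 30.8% to 38.3% in the controls, with the ranges overlapping. Both shares were part of a family of 4, and the exact permutation p was 0.1 for the JAK1 share (adjusted over the 4, 0.2) and 0.6 for the STAT3 share.

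**Figure D3:**
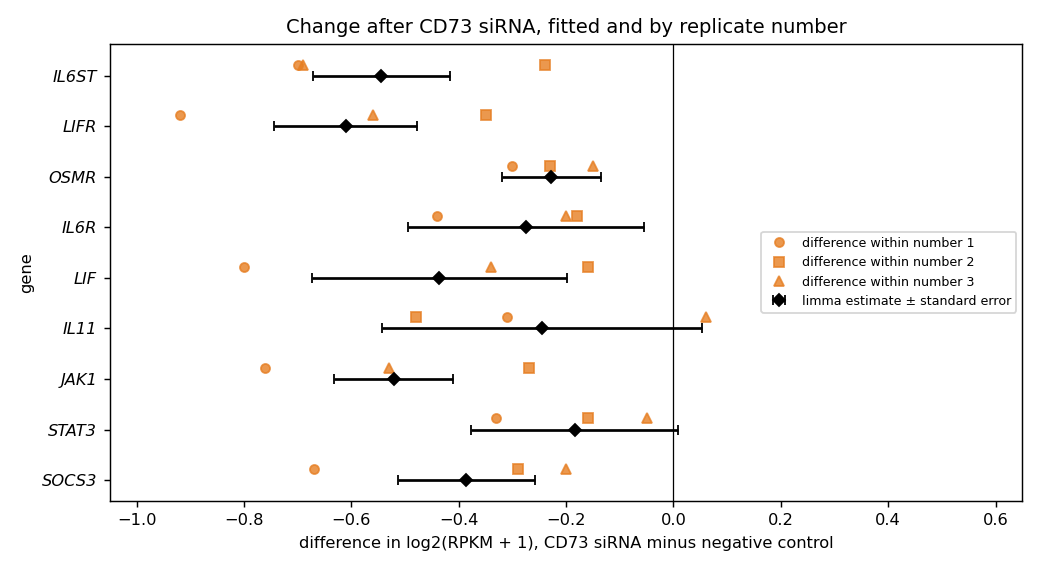
Difference in log2(RPKM + 1), CD73 siRNA minus negative control, for the 9 tested genes. Black diamonds with bars are the limma estimate ± its standard error, and orange circles, squares and triangles are the differences within numbers 1, 2 and 3. All estimates lie below 0, from -0.61 for LIFR to -0.18 for STAT3, and the single difference above 0 is that of IL11 in number 3 (0.06).

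SOCS3 (ENSG00000184557, chromosome 17, 78356778 to 78360077, minus strand), the feedback inhibitor that STAT3 induces, was at 22.3, 28.8 and 25.6 RPKM after CD73 siRNA and at 36.0, 35.5 and 29.6 RPKM in the controls. The highest knockdown sample, number 2, lay just below the lowest control, number 3. The means were 25.6 ± 3.27 and 33.7 ± 3.59 RPKM (76.0% of control), and the log2 fold change of -0.39 (standard error 0.13) missed the limit by limma (unadjusted p = 0.017, adjusted p = 0.347). Without control 3 it was called, at an unadjusted p of 0.00997. SOCS3 made up 34.6%, 37.5% and 36.4% of the RPKM of the SOCS family (SOCS1 to SOCS7 and CISH) after CD73 siRNA, against 43.8%, 41.4% and 37.6% in the controls (exact permutation p = 0.1, adjusted over the 4 shares 0.2). The divergent transcript SOCS3-DT was at 0.90 to 1.66 against 1.05 to 1.57 RPKM.

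Of 15 further feedback genes and inhibitors, 13 could be tested and 0 were called, with a median log2 fold change of -0.01. SOCS2, an inhibitor best known for limiting growth hormone signalling, was at 2.74, 3.94 and 2.39 RPKM after CD73 siRNA and at 5.45, 4.6 and 4.0 RPKM in the controls. These did not overlap, and the log2 fold change of -0.51 had an unadjusted p of 0.017 by limma, and of 0.00665 with the block, where SOCS2 was the 1 gene of the list called, and of 0.00356 without CD73 siRNA 2. PTPN11, which encodes the phosphatase SHP2 that docks on gp130, went the other way, at 43.8, 46.7 and 50.8 RPKM after CD73 siRNA and at 16.2, 39.5 and 34.3 RPKM in the controls. The groups did not overlap, and the knockdown sample was the higher one within each number, but control 1 was the lowest by far. The log2 fold change of 0.72 had an unadjusted p of 0.0359 by limma and of 0.01001 with the block, both above the limit. It was 0.34 without control 1, and without control 2 it was 0.96 and PTPN11 was called (unadjusted p = 0.00845 by limma). PTPN1, a phosphatase that acts on Janus kinases, was at 10.5 to 12.4 against 12.5 to 14.5 RPKM (-0.21, unadjusted p = 0.0799 by limma). SOCS1 reached 1 RPKM in 2 samples only, too few for the test, and was singled out after its values were seen. It had 16, 9 and 9 reads after CD73 siRNA and 63, 26 and 34 in the controls, or 0.291 to 0.559 against 0.946 to 2.19 RPKM, and without the filter on low values limma gave an unadjusted p of 0.00975.

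The proteases that cut IL6R from the cell surface and their partners were tested in 4 genes, of which 0 were called. ADAM17, the main protease, was at 11.1 to 12.1 RPKM after CD73 siRNA and at 12.4 to 14.6 RPKM in the controls, without overlap (log2 fold change -0.21, unadjusted p = 0.076 by limma). Its partners RHBDF1 and RHBDF2 had log2 fold changes of -0.16 and 0.02, the second turning sign under another scaling.

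**Figure D4:**
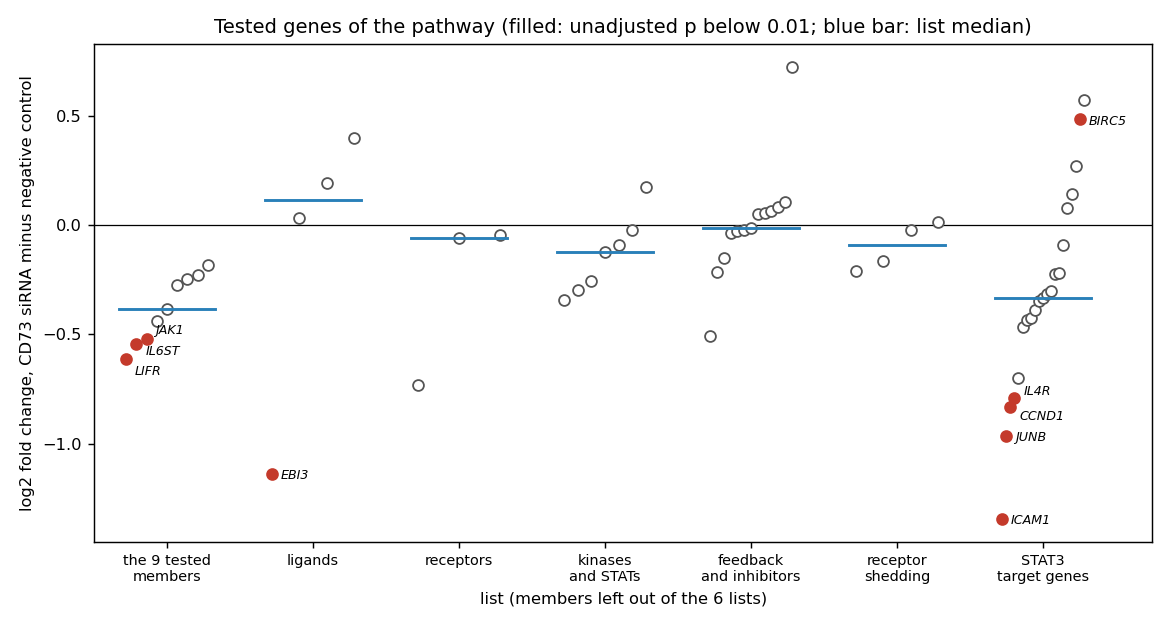
Log2 fold change, CD73 siRNA minus negative control, of each tested gene among the 9 members and in the 6 lists of further pathway genes, sorted within a list. Filled red points have an unadjusted p below 0.01 and blue bars are list medians, which lie at -0.39 for the members, at -0.33 for the STAT3 target genes and between -0.12 and 0.11 for the other 5 lists.

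Of 35 genes listed as STAT3 targets, 31 were in the files and 21 could be tested. Of the 21, 4 were called lower and 1 higher (1.31% and 1.82% of all tested genes), 16 had a log2 fold change below 0 (48.0% of all tested genes) and the median was -0.33. In 9 every knockdown sample lay below every control, and in 3 every one lay above, as in 8.07% and 10.3% of all tested genes. With the number as a block, 6 were called lower and 1 higher, against 3.3% and 4.27% of all tested genes. The list was chosen with earlier results of these data known, so its distance from the shares over all tested genes is a description and no test. Many genes of the list are also known targets of NF-kB, AP-1 or growth factor signals. The liver acute-phase genes LRG1, SERPINA3, FGG, SAA1 and LBP, which IL-6 induces in hepatocytes, had at most 8 reads in any sample.

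ICAM1, an adhesion molecule, was the list's largest change, at 8.96, 12 and 14.3 RPKM after CD73 siRNA against 38.5, 19.8 and 38.5 RPKM, with a log2 fold change of -1.34 (unadjusted p = 0.00102 by limma). CCND1, which encodes cyclin D1, was at 75.5, 76.9 and 72.1 RPKM against 180.2, 103.7 and 129.0 RPKM (-0.83, unadjusted p = 0.00186 by limma). IL4R, a chain of the IL-4 and IL-13 receptors that itself works through JAK1, was at 3.55, 4.42 and 3.88 RPKM against 10.6, 6.24 and 6.42 RPKM (-0.79, unadjusted p = 0.00315 by limma). In all 3 genes control 2 was the lowest control and still above every knockdown sample. Leaving out CD73 siRNA 1 or CD73 siRNA 3 ended the call of IL4R, at an unadjusted p by limma of 0.0144 and 0.0101.

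JUNB, an AP-1 subunit, was at 7.83, 12.8 and 10.4 RPKM after CD73 siRNA and at 33.3, 17.9 and 14.8 RPKM in the controls (-0.96, unadjusted p = 0.00978 by limma). Its call was lost with the block (unadjusted p = 0.0129 by limma) and without CD73 siRNA 1 or 3 or control 1 or 2, where the unadjusted p was 0.0402, 0.0229, 0.0167 and 0.0122. BIRC5, which encodes the mitotic protein survivin, was the gene called higher, at 76.9, 66.3 and 67.4 RPKM against 41.0, 59.7 and 50.4 RPKM (0.48, unadjusted p = 0.009997). That p lies at the limit, and the call held in only 1 of the 12 alternatives, the fit without control 2. With the block the unadjusted p was 0.0111 by limma. The adjusted p of these 5 genes was between 0.303 and 0.320. MYC, MCL1 and PIM1 were called lower with the block and BCL2L1 higher, at log2 fold changes of -0.42, -0.35, -0.47 and 0.57. Over all 6 samples without the block none of them was called. MYC and MCL1 were also called without CD73 siRNA 2 (unadjusted p = 0.00428 and 0.00536 by limma). PIM1 was called without control 3 and BCL2L1 without control 2 (unadjusted p = 0.00987 and 0.000711 by limma). They are named after their values were seen.

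By the mean level in the controls, the order of the 10 genes was JAK1 (76.7 RPKM), STAT3 (53.6), SOCS3 (33.7), LIF (32.0), OSMR (23.4), IL6ST (20.5), LIFR (4.98), IL11 (3.75), IL6R (1.59) and IL6 (0.0207). Neighbours in that order were apart over the 3 controls, except SOCS3 from LIF and LIFR from IL11, whose ranges overlapped. After CD73 siRNA the ranges also overlapped for JAK1 and STAT3 and for LIF and OSMR, and STAT3 exceeded JAK1 in sample 3. The receptor chains thus stood in the order OSMR, IL6ST, LIFR and IL6R in every one of the 6 samples.

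The 3 genes called lower also had the profiles nearest to each other over the 6 samples. The distance used was the root mean square difference of the log2(RPKM + 1) profiles, each centred on its own mean. It was 0.065 between LIFR and JAK1, 0.086 between IL6ST and LIFR and 0.087 between IL6ST and JAK1, the smallest of the 36 pairs, and 0.518 for the farthest pair, IL6ST and IL11. Since the 6 samples hold the knockdown contrast itself, this is a description of these libraries. Over the whole table the genes nearest to IL6ST were SLC35F2 (0.051), FZD5 (0.062) and LHX6 (0.065). For LIFR they were APPL2 (0.029), CLP1 (0.048) and GALNT10 (0.055), and for JAK1 CHAMP1 (0.05), PARP14 (0.055) and CORO6 (0.059). LIF was nearest to the phosphatase gene DUSP1 (0.041), and then to NOB1 (0.058) and RNF114 (0.066). OSMR was nearest to NIF3L1 (0.026), REXO4 (0.033) and CDC14A (0.034), and IL6R to FAM83D (0.046), WDR43 (0.056) and EPHB2 (0.057). STAT3 was nearest to ADAM11 (0.052), MID1 (0.062) and CD44 (0.078), and SOCS3 to ABT1 (0.042), COPS7B (0.052) and CDCA8 (0.053). IL11 had no gene as near, with NFATC2 (0.11), UBAP1 (0.117) and SLFNL1 (0.13) the closest.

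The keratins KRT8 and KRT18 moved with the receptor and kinase genes, at 41.0 ± 9.57 against 105 ± 46.6 RPKM and at 43.3 ± 6.25 against 70.4 ± 15.3 RPKM (SD, 3 samples per group), in both without overlap (log2 fold changes -1.27 and -0.68, unadjusted p = 0.00261 and 0.00448 by limma). The call of KRT18 was lost without CD73 siRNA 1 or 3 or control 1 or 3 (unadjusted p between 0.0106 and 0.0173). The summed level of the 7 line markers was 254 to 360 RPKM after CD73 siRNA and 368 to 516 RPKM in the controls, and that of the 10 markers of other cell types was 8.47 to 14.9 against 6.55 to 12.6 RPKM. VIM, also among the 7, overlapped at 183 to 263 against 211 to 262 RPKM (log2 fold change -0.10, unadjusted p = 0.518 by limma). KRT19, EPCAM and CDH1 were not called either (-0.26, 0.03 and -0.12, unadjusted p = 0.0802, 0.888 and 0.696 by limma), and KRT7 was too low to test. The part of the markers in the lower values of IL6ST, LIFR and JAK1 was not tested.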

How the data were processed

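RNA of 6 PANC-1 samples, 3 with CD73 siRNA and 3 with negative control, was sequenced. The authors deposited a file for every sample that lists 30735 genes with their normalized values, read here as RPKM; neither the labels nor the methods state the unit. The submitters' processing notes name bcl2fastq, Bowtie2 2.2.3, HTSeq 0.6.0 and hg38. Multiplied by merged exon lengths of GENCODE 29, 95.5% to 95.6% of values worth under 1000 reads per sample were whole to within 0.05, which gave library totals and reads per gene, used to describe precision and not tested. Symbols came from a name table, and 351 identifiers had none.

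Values were tested on log2(RPKM + 1) with limma 3.58.1 (lmFit, eBayes with trend, R 4.3.3), two-sided, for the 12527 genes reaching 1 RPKM in 3 or more samples, checked on simulated data. Single values had exact two-sided permutation tests. Deviations of same-numbered samples from their group means correlated at 0.2, 0.48 and 0.55 over genes, so the label numbers were taken to pair the samples in the blocked fit. Different numbers correlated at -0.21 on average. That value is tied to the others by centring each group on its own mean and adds no support for the pairing. Some list genes are not reported here by name. Members and lists were chosen with earlier results of these data known. Besides the members, the lists' called genes are named or, where none was called, the 3 with the smallest p, and the 3 nearest profiles. There were 12 alternatives, namely no filter, a pseudocount of 0.1, median-of-ratios scaling, a sum of 1000000 per sample, the block, 6 fits without 1 sample and no moderation. Where a fit leaves out a sample, its group holds 2.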

Additional observations from a re-analysis of the deposited data

How the results depend on the processing

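Of the 12 alternatives for each of 36 named genes, 366 results kept direction and side of the limit, 38 lost the call, 17 gained it and 11 changed sign; the causes were not tested. Of all tested genes, 392 passed the limit, 948 with the replicate block, 216 without moderation and 116 to 792 without 1 sample. Members called numbered 3 under each alternative with all samples and 2 to 4 without 1 sample; without moderation OSMR took the place of IL6ST, and NT5E, EBI3, ICAM1, CCND1, IL4R, JUNB, BIRC5, KRT8 and KRT18 lost their calls. Ligands called went from 1 to 0 without moderation (0 to 2 without 1 sample), other receptors from 0 to 1 with the block (0 to 1), feedback genes from 0 to 1 with the block and without the filter (0 to 1), and STAT3 targets from 5 to 3 without the filter, 3 with sums of 1000000 and 0 without moderation (2 to 7). The block changed the calls of IL27RA, SOCS2, JUNB, BIRC5, MYC, MCL1, PIM1 and BCL2L1 and no other call among the named genes tested with it. Signs turned without 1 sample for IL11 (-0.447 to 0.0787), STAT3 (-0.316 to 0.0222), IL11RA (-0.117 to 0.0903), CNTFR (-0.267 to 0.102), RHBDF2 (-0.0365 to 0.0571, and -0.0083 with median-of-ratios scaling), SOCS3-DT (-0.0909 to 0.151) and the IL6R to IL6ST log2 ratio (-0.268 to 0.448). Low reads limit IL6, IL6R, IL11, EBI3, SOCS1 and CISH, among others. Over the alternatives the adjusted p of IL6ST ran from 0.0805, that of LIFR from 0.0879 and that of JAK1 from 0.0897, each up to 0.751.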

Other observations

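Several genes counted in the lists above were not described there by value. CISH, a STAT5-induced inhibitor of the SOCS family, was below the limit for testing, with 5, 14 and 4 reads after CD73 siRNA and 40, 8 and 19 reads in the controls. IRF1, an interferon-response transcription factor, was at 0.949, 1.6 and 0.541 RPKM after CD73 siRNA and at 3.53, 1.81 and 1.63 RPKM in the controls, without overlap, and its log2 fold change of -0.70 had an unadjusted p of 0.0276 by limma. TIMP1, a secreted inhibitor of matrix proteases, was at 21.6, 26.9 and 20.5 RPKM against 37.4, 29.4 and 27.8 RPKM, also without overlap (-0.43, unadjusted p = 0.019 by limma). VEGFA and HIF1A lay above every control in all 3 knockdown samples, at 4.19 to 5.36 against 3.62 to 3.93 RPKM and at 31.7 to 33.8 against 28.3 to 31.2 RPKM, and neither was called (unadjusted p = 0.0486 and 0.156 by limma). These genes are named after their values were seen.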
